A study of Xenopus laevis with 14 samples.

Results

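The genes described here are the receptors for neurotransmitters, read in RNA-seq of Xenopus laevis animal caps. They are the lines of the deposited expression table whose symbol starts with a root of 5 receptor families: GABA receptors (gabr, gabbr), glycine receptors (glra, glrb), glutamate receptors (gria, grik, grid, grin, grm), acetylcholine receptors (chrn, chrm) and serotonin receptors (htr). The rule found 78 of the 19921 genes in the table, of which 15688 carry a symbol. There were 15 GABA, 4 glycine, 27 glutamate, 19 acetylcholine and 13 serotonin receptor genes. Of these, 52 had a mean of at least 10 normalized reads over the 10 libraries and were tested, namely 7, 4, 23, 15 and 3 in the same order. The other 26 had means of at most 7.05 and are described at the end. The symbol rule also took 1 gene whose product binds a receptor and is not one itself, and it was under the filter.

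Animal caps are the upper ectoderm of the frog blastula, which forms epidermis when cultured alone. RNA was injected when embryos had 2 cells, and explants were taken near stage 10 and kept in diluted saline. The RNA libraries form 5 groups of 2: untreated caps (labelled wt, here wild type), caps with noggin RNA and retinoic acid (RA), and caps with noggin RNA, RA and RNA for prdm12, prdm12_engR or prdm12_VP16. All 4 groups other than wild type therefore share noggin, an inhibitor of BMP signalling that turns caps into neural tissue, and RA, which gives neural tissue a posterior character. Prdm12 is a zinc finger protein with a PR domain that acts in the nucleus. The labels do not spell out engR and VP16, names that in Xenopus work usually stand for the repressor domain of Engrailed and the activation domain of a viral protein. No promoter limits the injected RNA to a cell type within the cap. Another 4 samples of the 14 in the series, from ChIP and its input, were not used for the receptors.

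Neurons detect transmitters with receptors of 2 kinds. Ionotropic receptors are ion channels built from several subunits, each from its own gene: GABA-A and glycine receptors pass chloride, and nicotinic, AMPA, kainate and NMDA receptors pass cations. Metabotropic receptors (GABA-B, metabotropic glutamate, muscarinic and most serotonin receptors) are single G protein-coupled proteins or pairs of them. In vertebrate embryos many of these genes come on as neurons leave the cell cycle, and nicotinic subunits are also expressed in muscle, where they form the receptor of the neuromuscular junction.

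Each library held between 11986697 and 15893668 reads on genes. The table names genes by identifiers of Xenopus tropicalis, so reads of the 2 homeologous copies that Xenopus laevis often keeps share 1 line. RefSeq (X. laevis v10.1) names both an L and an S copy for 35 of the 78 symbols, 1 copy for 33 and neither for 10. The neural label of the caps was checked with 19 general neuron genes (tubulins, stathmins, neurofilaments, elavl3 and others), whose summed level was 4644 and 3404 normalized reads in wild type and 25722 to 217393 in the 8 neuralized libraries. The sum of 16 epidermal lines (keratins, grainyhead factors and others) was 956696 and 846790 in wild type and 17705 to 59157 in the neuralized libraries. One library stood apart: VP16 replicate 1 had the lowest neuron sum of the 8 neuralized libraries, 25722 against 79786 in VP16 replicate 2 and 98002 or more in the other 6. The sum leaned on tubb2b, which made up 12333 of the 25722, and genes of the list differed. ncam1 read 1795 in VP16 replicate 1 and 1794 and 1963 with noggin and RA alone. stmn2 read 195 in VP16 replicate 1 and 1782 and 2663 with noggin and RA alone. EngR replicate 1 carries engR in its title but VP16 in its treatment label, and results on engR are therefore also given without it. Its column name in the expression table carries EnR, as does that of engR replicate 2. The line of prdm12 itself read 9.26 and 1.09 in wild type, 29.3 and 77.8 with noggin and RA, 160 and 209 with prdm12, 262 and 160 with engR and 379 and 250.4 with VP16. The column names of the prdm12 group put a prefix, m, before the gene name, which the labels do not explain. Whether this line counts all of the injected RNA was not tested. Whether replicates are separate clutches or cultures is not stated, and the p-values rest on the spread between the libraries at hand, which could be technical. In bulk RNA, fewer neurons and less receptor RNA per neuron cannot be told apart.

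Caps with noggin and RA held more receptor RNA than untreated caps, and each of the 5 transmitter families had genes that rose. In the serotonin family 2 genes rose while the summed level was 74.1 and 85.3 normalized reads in wild type and 39.8 and 36.8 with noggin and RA. The summed level of all 78 genes was 865 and 733 normalized reads in wild type (replicates 1 and 2) and 13545 and 17648 with noggin and RA. Of the 52 genes tested, 38 were higher and 2 lower than in wild type at an adjusted p under 0.05 (limma with Benjamini-Hochberg adjustment over all 12937 genes tested, two-sided, which holds for every adjusted p below). Of all genes, 22.3% were called higher and 21.4% lower in the same comparison, 43.7% in all. The median log2 fold change of the 52 was 3.91, on the log2(value + 1) scale used throughout, against 0.02 for all genes tested. Setting the 4 receptor genes that had no read in wild type to a bound of 3 reads left it at 3.91. These 4 genes already lay below the median, so the bound could not have moved it. The libraries of the 2 groups did not overlap for 40 receptor genes on the higher side (36.4% of all genes) and 4 on the lower side (35.3%). The neuron genes moved with them, 19 of 19 called higher, and their part in the receptor counts was not tested.

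**Figure D1:**
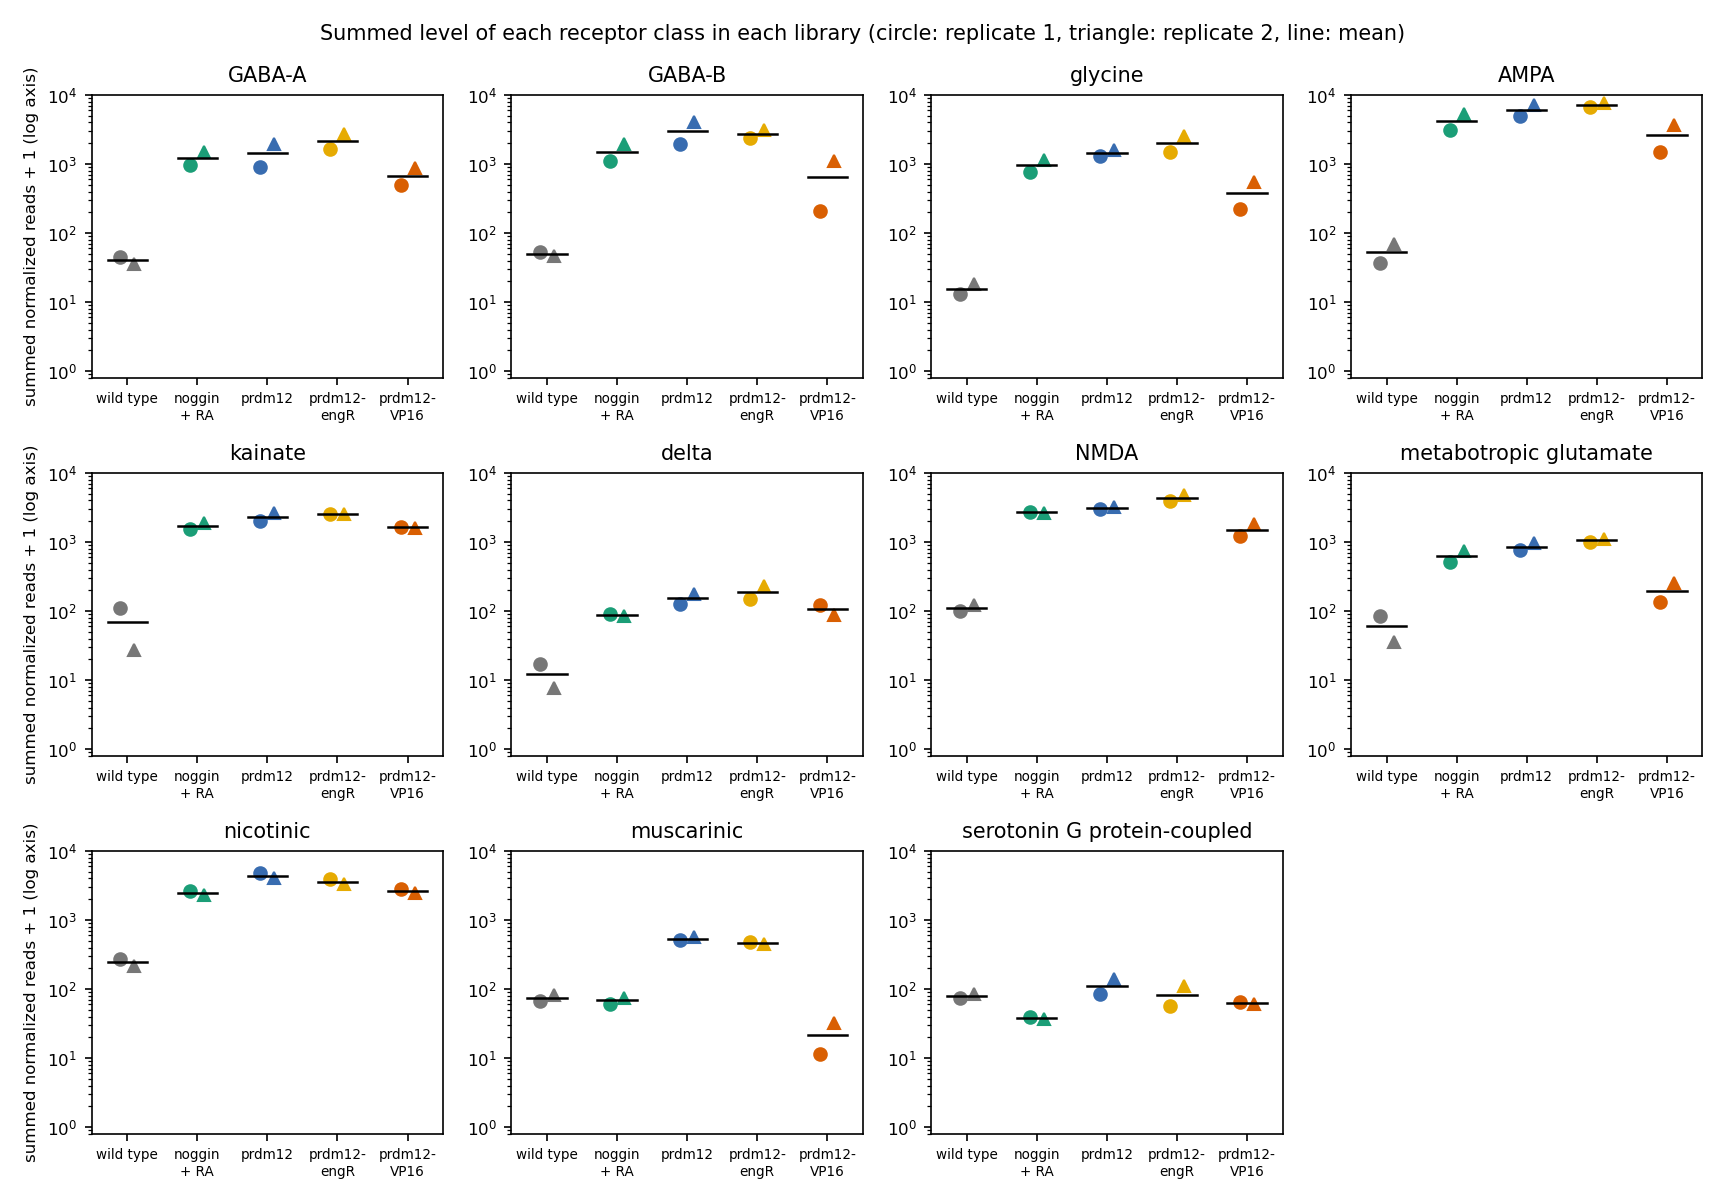
Summed normalized reads (plus 1, log axis) of each receptor class in each library by group, with circles for replicate 1, triangles for replicate 2 and lines for group means; the serotonin channel genes, which sum to at most 2.3 in a library, are left out. Wild-type libraries lie lowest in most panels, whereas the muscarinic and serotonin sums of wild type lie among or above the others.

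The same rise ran through most subunit types, in a comparison where 22.3% of all genes were called higher. All 4 AMPA subunits, all 4 glycine receptor subunits and both GABA-B subunits were called higher, as were 4 of 5 GABA-A, 4 of 5 kainate, 3 of 6 NMDA, 4 of 6 metabotropic glutamate, 7 of 11 nicotinic, 2 of 4 muscarinic and 2 of 3 serotonin genes. The smallest p belonged to grin1, the subunit that every NMDA receptor needs, with 33.1 and 29.5 normalized reads in the wild-type libraries and 2498 and 2296 with noggin and RA (log2 fold change 6.21 ± 0.23, SE; adjusted p = 1.79e-06). GRIK2, a pore subunit of kainate receptors, stood at 6.62 and 10.9 and then 1139 and 1388 (7.04 ± 0.32; adjusted p = 3.88e-06). The libraries of the 2 groups were far apart for both genes, and replicates differed little beside that distance.

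Other classes were led by gria4 (AMPA; 7.94 and 15.3 in wild type, 919.5 and 1034 with noggin and RA), chrna5 (an accessory nicotinic subunit; 7.94 and 10.9, then 405 and 424) and glra3 (a glycine-binding subunit; 7.94 and 12, then 345 and 313). Their adjusted p were 8.63e-06, 6.89e-06 and 2.89e-05. The GABA-B receptors were led by gabbr1, which binds GABA in the receptor pair (50.3 and 41.6, then 886 and 1606; adjusted p = 0.000557). The metabotropic glutamate, muscarinic and serotonin receptors were led by grm7 (adjusted p = 0.000113), CHRM4 (0.00307) and htr2b (0.00467). In all of these genes both libraries with noggin and RA lay above both wild-type libraries.

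**Figure D2:**
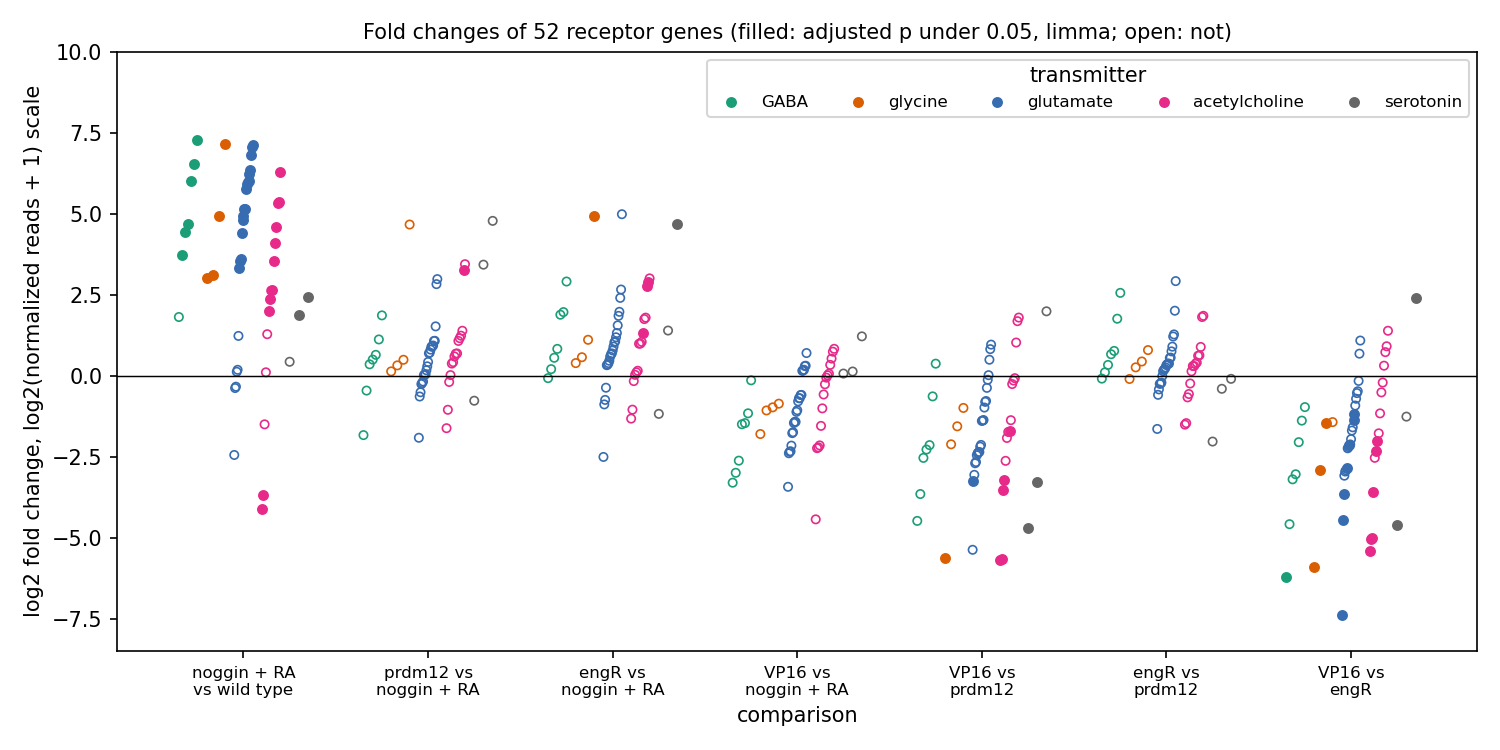
Log2 fold change (log2(normalized reads + 1) scale) of each of the 52 tested receptor genes in the 7 comparisons, coloured by transmitter; filled points passed an adjusted p under 0.05 in limma and open points did not. With noggin and RA against wild type 40 points are filled; among the groups with noggin the filled points are 1, 5, 0, 9, 0 and 19 from left to right.

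The receptor genes called lower were CHRM1 and chrna6. Both passed the filter only through wild type, where they were high, with means of 9.54 and 1.93 over the other 8 libraries, so their count says nothing of how many receptor genes fell. CHRM1, a muscarinic receptor that signals through phospholipase C, had 55.6 and 73.3 normalized reads in wild type and 3.25 and 5.02 with noggin and RA (log2 fold change -3.68 ± 0.59, SE; adjusted p = 0.00131). chrna6, a nicotinic alpha subunit, had 75.4 and 29.5 and then 0.810 and 3.35 (-4.11 ± 0.73; adjusted p = 0.00231). Neither gene returned to the wild-type range in any library with noggin, where CHRM1 stayed at or below 21.9 and chrna6 at or below 3.93. The other 2 genes with their highest group mean in wild type were not called: grik4, a kainate subunit (87.3 and 9.85 in wild type, 2.44 and 8.37 with noggin and RA; adjusted p = 0.156), where 1 wild-type library carried most of the reads, and chrna7, the subunit of homomeric nicotinic receptors (67.5 and 53.6, then 19.5 and 21.8; adjusted p = 0.0831), which was called lower with the replicate number as a block (0.0465).

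In all, 7 of the 52 genes passed the filter only through the group with their highest mean, among them also chrnd, chrm2, htr1a and htr1b. A count without them, added after seeing the data, gave 35 higher and 0 lower calls over the other 45 genes with noggin and RA against wild type, and 1, 4, 0, 7, 0 and 17 in the comparisons among groups with noggin, in the order prdm12, engR and VP16 against noggin and RA alone, VP16 and engR against prdm12, and VP16 against engR. The 0 lower calls follow from the rule, since CHRM1 and chrna6, the only genes called lower, were among the 7 left out. A count of this kind was not made over all genes.

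The other genes not called were chrm2, gabra3, grm5, chrna1, GRM2, htr1b, grin2a, grin3b, grin2c and chrng. They include the muscle-type subunits chrna1 and chrng, while chrnd, another muscle-type subunit, was called higher at an adjusted p of 0.044. When each library was left out in turn, most of the 40 calls stood in every such fit. The other 5 calls were lost in some of these fits: grm3 (without wild type 2 or noggin 2), chrm5 (without wild type 2 or noggin 1 or 2), chrnd (without either library of wild type, noggin or engR), glra1 (without wild type 1, noggin 2 or any prdm12 or VP16 library) and htr1a (without any 1 library). With the replicate number as a block 42 were called, against 58.3% of all genes, with chrm2 (0.0112) among those gained.

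Among the 4 groups with noggin and RA, receptor levels were set apart mainly by VP16. The summed level of the 78 genes was 13545 and 17648 normalized reads with noggin and RA alone, 20282 and 26555 with prdm12, 24285 and 28513 with engR, and 8452 and 12538 with VP16. Both VP16 libraries lay below all 6 others. Of the 52 tested genes, engR had the highest mean of the 4 groups for 31, prdm12 for 13, VP16 for 5 and noggin and RA alone for 3, and VP16 had the lowest mean for 36. The order of the groups in the neuron gene sum was the same in part: 98002 and 144524 with noggin and RA alone, 172481 and 217393 with prdm12, 193451 and 207819 with engR, and 25722 and 79786 with VP16. The part of neuron gene level in the receptor differences was not tested. Replicate 2 was higher than replicate 1 for 34, 31, 36 and 38 of the 52 genes with noggin and RA alone, prdm12, engR and VP16. Neither these counts nor those of the highest and lowest means were made over all genes.

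**Figure D3:**
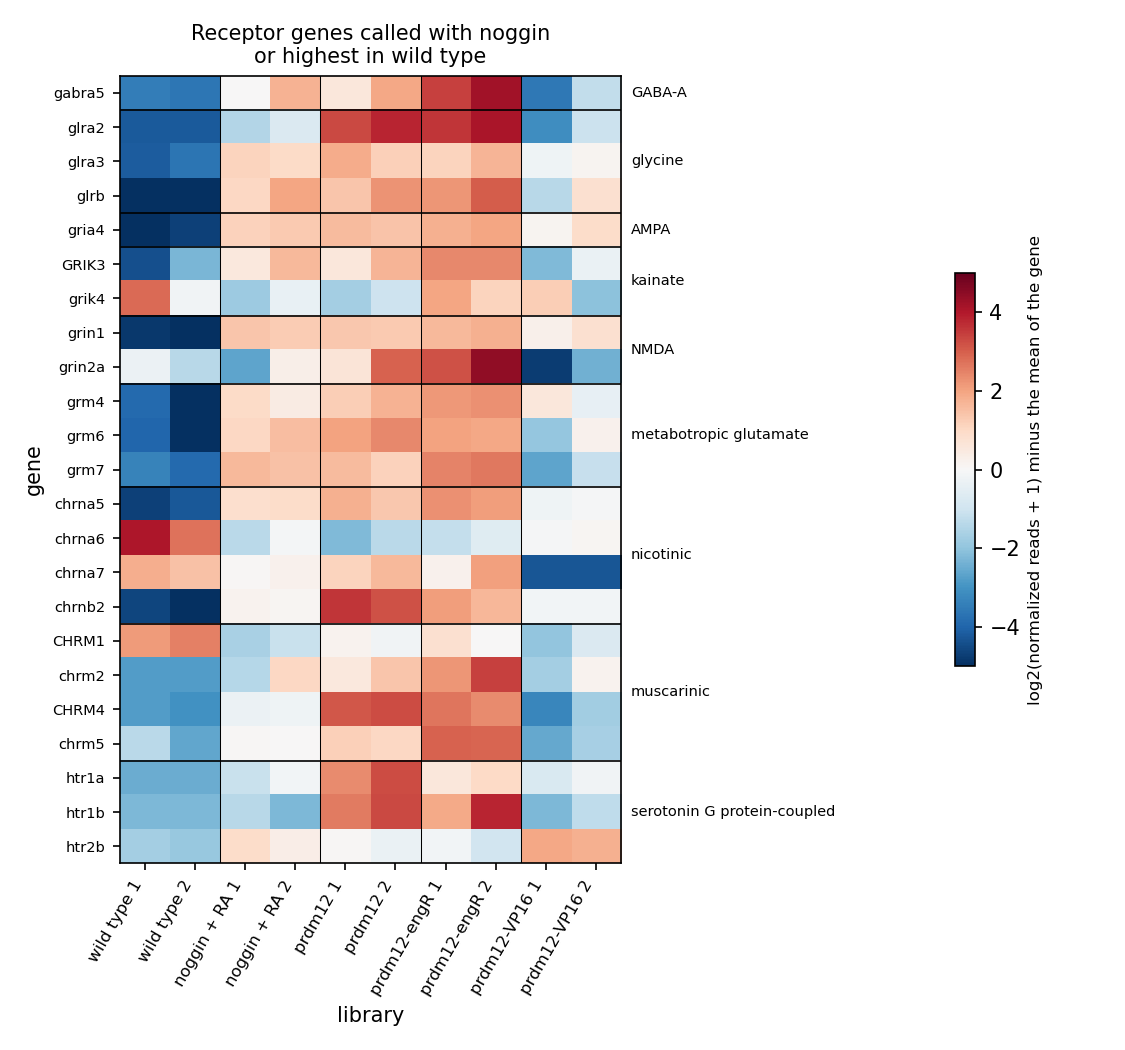
Each row is 1 of 23 receptor genes, the 20 called among the groups with noggin and the 4 with their highest mean in wild type (chrna7 is in both), and each column is 1 library, coloured by log2(normalized reads + 1) minus the mean of the gene over the 10 libraries; horizontal lines part the receptor classes. The wild-type columns are blue in most rows and both red for chrna6, chrna7 and CHRM1, and the VP16 columns are paler or blue where prdm12 and engR columns are red in rows such as glra2, grin2a, CHRM4 and chrm5.

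The calls among these groups were few and lay mostly in contrasts with VP16. With prdm12 against noggin and RA alone, 1 of 52 receptor genes was called (chrnb2, higher), against 0.162% of all genes in either direction (0.147% higher, 0.0155% lower). At an unadjusted p under 0.05 there were 10 of 52, against 6.4% of all genes. With engR against noggin and RA alone, 5 were called, all higher (glra2, htr1b, CHRM4, chrm5 and chrna5), against 3.43% of all genes (2.41% higher, 1.02% lower). VP16 against noggin and RA alone gave 0 calls in limma, as it did over all genes (0%), with 15 of 52 receptor genes and 6.71% of all genes at an unadjusted p under 0.05. edgeR on the recovered reads also called 0 there and DESeq2 called 4. These 3 comparisons share the 2 libraries with noggin and RA alone. VP16 against prdm12 gave 9 calls, all lower, against 3.86% of all genes (0.758% higher, 3.11% lower), and VP16 against engR gave 18 lower and 1 higher against 12.1% (8.7% lower, 3.42% higher). EngR against prdm12 gave 0 calls in limma, as over all genes (0%), with 8 of 52 receptor genes and 5.25% of all genes at an unadjusted p under 0.05. edgeR called 0 and DESeq2 called 2 there (chrnb2 lower, chrm5 higher).

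The median log2 fold change of the 52 genes was 0.54 with prdm12 and 0.94 with engR against noggin and RA alone, where that of all genes was 0.03 in both. The median was -0.99 with VP16 against noggin and RA alone, -1.83 against prdm12 and -1.98 against engR, where that of all genes was between -0.02 and 0.00. Quantile normalization moved the median of all genes to -0.13 for engR against noggin and RA alone, 0.14 for VP16 against prdm12 and 0.20 for VP16 against engR. Groups that did not overlap show the same order. With prdm12 23 receptor genes were higher and 4 lower in both libraries than in either library with noggin and RA alone (17.1% and 13.4% of all genes), with engR 34 and 6 (25.9% and 20.1%), and with VP16 5 and 24 (14.3% and 15.9%). With VP16 4 were apart on the higher and 37 on the lower side of prdm12 (19.7% and 23.9% of all genes), and 4 and 41 of engR (26% and 29.9%). EngR lay apart from prdm12 for 17 genes on the higher and 7 on the lower side (15.7% and 12.8%).

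With 2 libraries per group these counts were dependent on single libraries. The 1 call with prdm12 became 0 without either library of noggin and RA alone, prdm12 or engR, where between 0% and 0.00773% of all genes were called, and 2 (CHRM4 and glra2, with chrnb2 lost) without either VP16 library (0.255% and 0.247% of all genes). The 5 calls with engR became 0 without either library of noggin and RA alone (0.402% and 0.356% of all genes) or engR (0.0309% each), thus also without the engR library with the discordant label, and 3 without either prdm12 library (2.74% each). The 0 calls of VP16 against noggin and RA alone became 5 without VP16 replicate 2 (1.52% of all genes). The 9 calls of VP16 against prdm12 became 2 and 3 without prdm12 replicates 1 and 2 (0.448% and 0.719% of all genes), 5 without engR replicate 1 (1.35%), 4 without VP16 replicate 1 (1.1%) and 18 without VP16 replicate 2 (6.62%). CHRM4 and chrna7 were the 2 called in every such fit. The 19 calls of VP16 against engR became 9 and 6 without engR replicates 1 and 2 (3.66% and 2.51% of all genes) and 8 without VP16 replicate 1 (5.65%). CHRM4, chrna7, chrm5, grm7, glra2 and chrna5 were the 6 called in every such fit. In each of these fits the share of all genes called moved the same way as the receptor count. With the replicate number as a block the counts were 5, 10 and 2 for prdm12, engR and VP16 against noggin and RA alone (0.935%, 10.9% and 0.34% of all genes), 27 for VP16 against prdm12 (16.4%), 0 for engR against prdm12 (0.1%) and 33 for VP16 against engR (29.1%).

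Of the 15 acetylcholine receptor genes tested, 6 were called lower with VP16 than with engR, against 18 of all 52 receptor genes and 8.7% of all genes. chrnb2 (ENSXETG00000003846, scaffold GL174136.1, 10244 to 16611), a beta subunit of neuronal nicotinic receptors, had 3.97 and 1.09 normalized reads in wild type, 133 and 127 with noggin and RA, 1439 and 1089 with prdm12, 509 and 378 with engR and 108 and 108 with VP16. The prdm12 libraries were the highest, the engR libraries came next, and none of the 5 groups overlapped with another. From noggin and RA to prdm12 the mean rose from 130.2 ± 4.37 (SD, n = 2) to 1264 ± 247 (log2 fold change 3.26 ± 0.43, SE; 95% interval 2.26 to 4.25; adjusted p = 0.0379). The engR value was 1.75 ± 0.43 and did not pass (adjusted p = 0.0756; 0.017 with the replicate block). The VP16 value against noggin and RA alone was -0.27 ± 0.43 (interval -1.26 to 0.73; adjusted p = 0.981). chrnb2 was lower with VP16 than with prdm12 (-3.52 ± 0.43; adjusted p = 0.00679) and than with engR (-2.01 ± 0.43; 0.0224). Between engR and prdm12 the difference was -1.51 ± 0.43 (interval -2.51 to -0.51; adjusted p = 0.56), and this is 1 of the 2 genes that DESeq2 called there.

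CHRM4 (ENSXETG00000031642, scaffold GL172718.1, 2420922 to 2421743), a muscarinic receptor coupled to inhibitory G proteins, was called in 3 of the 6 comparisons among neuralized groups. Its libraries read 6.62 and 5.47 in wild type, 42.3 and 44.3 with noggin and RA, 454 and 506 with prdm12, 337 and 269 with engR and 4.61 and 14.7 with VP16. Again no neuralized group overlapped with another, and replicate 1 with VP16 was below both wild-type libraries. It rose with engR (2.77 ± 0.50; adjusted p = 0.0267), and the larger difference with prdm12 missed the threshold (3.44 ± 0.50; 0.0584; 0.0262 with the block). It was lower with VP16 than with prdm12 (-5.68 ± 0.50; adjusted p = 0.0028) and than with engR (-5.01 ± 0.50; 0.00176). Against noggin and RA alone the VP16 value was -2.24 ± 0.50 (adjusted p = 0.358).

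chrm5, a muscarinic receptor that signals through phospholipase C, peaked with engR instead. It read 12.2 and 11.7 with noggin and RA, 27.7 and 24.8 with prdm12, 95.9 and 92.7 with engR and 1.15 and 2.95 with VP16. The rise with engR was 2.88 ± 0.57 (adjusted p = 0.0373), and VP16 was lower than prdm12 (adjusted p = 0.0267) and than engR (0.00252). chrm2, like CHRM4 a receptor coupled to inhibitory G proteins, had no read in wild type, 1.63 and 13.4 with noggin and RA, 9.24 and 17.4 with prdm12, 31.3 and 74.2 with engR and 1.15 and 6.87 with VP16, and was lower with VP16 than with engR (adjusted p = 0.0496), its highest group, through which alone it passed the filter. With engR against noggin and RA alone it passed with the block and not without it (0.0307 and 0.163). Its replicates differed by more than those of CHRM4 or chrm5. The muscarinic family as a whole summed to 60.2 and 74.5 normalized reads with noggin and RA, 506 and 559 with prdm12, 486 and 449 with engR and 10.4 and 31.4 with VP16, and wild type, at 66.2 and 79.9, had 1 library within and 1 above the range of noggin and RA alone, with CHRM1 the main gene in wild type and CHRM4 in the others.

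**Figure D4:**
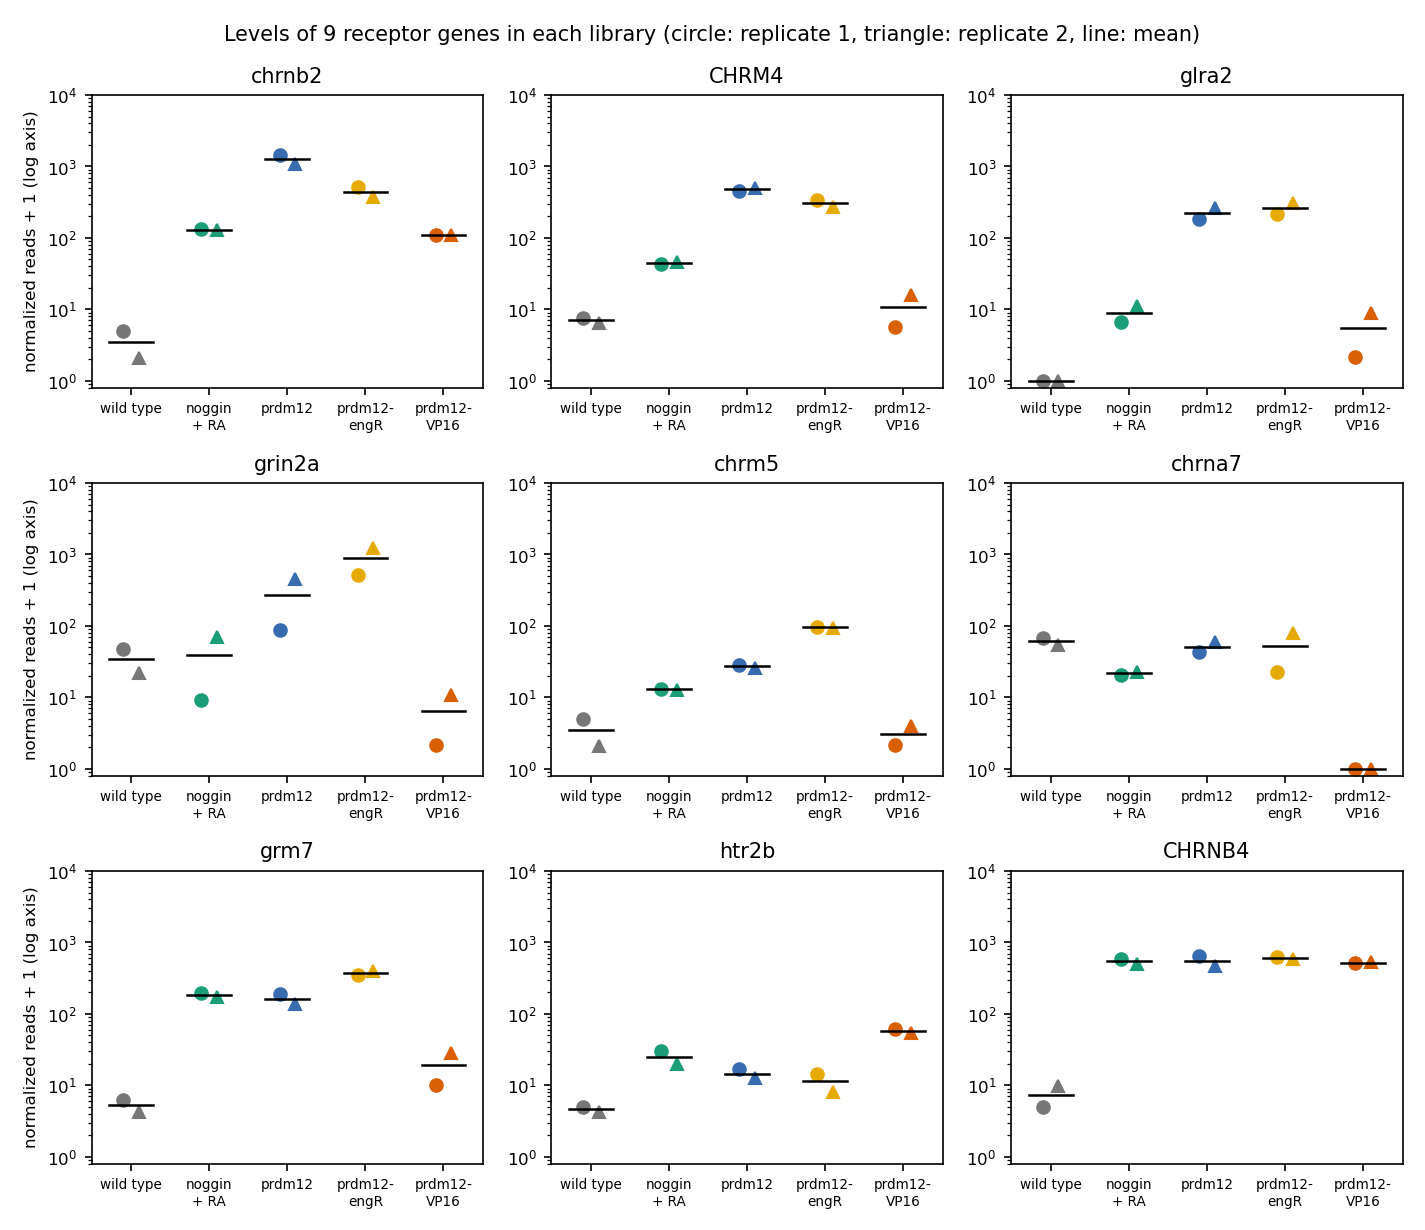
Normalized reads (plus 1, log axis) of 9 receptor genes in each library by group, with circles for replicate 1, triangles for replicate 2 and lines for group means. chrnb2, CHRM4, glra2, grin2a and chrm5 lie highest with prdm12 or engR, chrna7 is at 0 reads in both VP16 libraries, htr2b is highest with VP16 and CHRNB4 stays between 465 and 649 over the 4 groups with noggin.

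chrna7 (ENSXETG00000016395, scaffold GL172944.1, 465810 to 496271) was the 1 tested receptor gene with no read in either VP16 library. It had 67.5 and 53.6 normalized reads in wild type, 19.5 and 21.8 with noggin and RA, 41.6 and 59.5 with prdm12, 21.9 and 79.3 with engR and 0 with VP16. Against a floor of 3 reads over the VP16 group, its level was at least 32.1-fold lower than with prdm12 (adjusted p = 0.00478) and at least 31.9-fold lower than with engR (0.0025). Against noggin and RA alone it was at least 13.0-fold lower, which did not pass (adjusted p = 0.156; 0.0373 with the block). These bounds cover counting error only.

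chrna5 read 405 and 424 with noggin and RA, 773 and 575 with prdm12, 1102 and 965 with engR and 195 and 217 with VP16. It rose with engR (1.31 ± 0.28; adjusted p = 0.0451) and was lower with VP16 than with prdm12 (-1.69 ± 0.28; 0.0204) and than with engR (-2.32 ± 0.28; 0.00268). Some nicotinic subunits were not called among these groups. CHRNB4, named here after its values were seen, read 592 and 499 with noggin and RA, 649 and 465 with prdm12, 628 and 580.1 with engR and 512 and 529 with VP16, with overlap between most groups. chrna2 (1085 and 892, 1494 and 1474, 1132 and 885 and 1362 and 1128 in the same order) and chrna1.2 (287 and 203, 223 and 199.9, 288 and 234 and 564 and 327) were the others chosen in this way. None of the 3 was called, although chrna1.2 was higher with VP16 than with prdm12 with the replicate block (adjusted p = 0.0254). The nicotinic sum was 2642 and 2302 with noggin and RA, 4763 and 4003 with prdm12, 3872 and 3278 with engR and 2791 and 2448 with VP16, and VP16 lay just above noggin and RA alone in each replicate.

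Of the glycine receptors, glra2 (ENSXETG00000011875, scaffold GL173169.1, 689994 to 793066), a glycine-binding subunit prominent in embryonic neurons, was called in 3 of these 6 comparisons. It had no read in wild type, 5.69 and 10.0 normalized reads with noggin and RA, 182 and 258 with prdm12, 216 and 310.1 with engR and 1.15 and 7.85 with VP16. The prdm12 and engR libraries overlapped with each other and lay far above the rest. From noggin and RA to engR the rise was 4.92 ± 0.69 (adjusted p = 0.0128), and that to prdm12 was 4.66 ± 0.69 and did not pass (0.0587; 0.0147 with the block). VP16 was lower than prdm12 (-5.64 ± 0.69; adjusted p = 0.00679) and than engR (-5.90 ± 0.69; 0.00264).

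The other glycine subunits moved less. glra3 read 345 and 313 with noggin and RA, 578 and 368 with prdm12, 352 and 524 with engR and 137 and 177 with VP16, and glrb, the beta subunit that anchors the receptor to gephyrin, read 409 and 786, 520.1 and 959.8, 911 and 1637 and 74.8 and 349.5. Both were lower with VP16 than with engR (adjusted p = 0.0385 and 0.0375). Neither was called with prdm12, engR or VP16 against noggin and RA alone, where glra3 with VP16 gave -1.07 ± 0.37 (adjusted p = 0.6). glra1 was called in none of these comparisons.

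Glutamate receptors were the largest family, with 7 of 23 tested genes called lower with VP16 than with engR, against 8.7% of all genes. grin2a (ENSXETG00000008002, scaffold GL173090.1, 35486 to 119960), a glutamate-binding NMDA subunit, had 46.3 and 20.8 normalized reads in wild type, 8.13 and 69.4 with noggin and RA, 87.8 and 449 with prdm12, 515 and 1241 with engR and 1.15 and 9.82 with VP16. Wild type and noggin and RA alone overlapped (log2 fold change -0.34 ± 1.21, SE; adjusted p = 0.845). The log2 fold change was above 0 in edgeR (0.27) and DESeq2 (0.20). In each neuralized group replicate 2 was well above replicate 1. The prdm12 value against noggin and RA alone was 2.98 ± 1.21 (adjusted p = 0.714) and the engR value 4.98 ± 1.21 (0.0711; 0.0127 with the block). VP16 was lower than engR (-7.38 ± 1.21; adjusted p = 0.00863), and against prdm12 the difference was -5.37 ± 1.21 (0.0532; 0.00863 with the block). The order of the group means was engR, prdm12, noggin and RA, wild type and VP16. The engR and prdm12 libraries did not overlap, and the test between them did not pass (adjusted p = 1).

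grin1 varied little beside it, with 2498 and 2296 with noggin and RA, 2447 and 2398 with prdm12, 2980.3 and 3295 with engR and 1155 and 1655 with VP16, and was lower with VP16 than with engR (-1.18 ± 0.23; adjusted p = 0.0145). Among metabotropic receptors, grm7, which inhibits transmitter release, read 193 and 173 with noggin and RA, 189 and 137 with prdm12, 355 and 394 with engR and 9.21 and 27.5 with VP16. Both VP16 libraries were far below the other 6. grm7 was lower with VP16 than with prdm12 (-3.25 ± 0.52; adjusted p = 0.0177) and than with engR (-4.46 ± 0.52; 0.00257), and against noggin and RA alone the value was -3.43 ± 0.52 (0.156; 0.0462 with the block).

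grm4 and grm6, of the same group of metabotropic receptors as grm7, were lower with VP16 than with engR (adjusted p = 0.0429 and 0.0358). grm6 read 159 and 230.1 with noggin and RA, 311 and 413 with prdm12, 317 and 301 with engR and 19.6 and 89.3 with VP16, and grm4 read 65.0 and 43.5, 78.5 and 112, 151 and 165 and 49.5 and 24.5. A second line with the symbol GRM6 was under the filter. GRM2, from another group, read 38.2 and 11.7, 144 and 171, 127 and 107 and 32.2 and 17.7 in the same order and was not called with prdm12 (adjusted p = 0.266) or engR (0.112; 0.0218 with the block).

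GRIK3, a kainate subunit, and gria4 were the only other glutamate receptor genes called, both lower with VP16 than with engR. GRIK3 read 29.3 and 62.7 with noggin and RA, 29.6 and 66.1 with prdm12, 107 and 109 with engR and 3.45 and 15.7 with VP16 (adjusted p = 0.0347), and gria4 read 919.5 and 1034, 1255 and 1129, 1432 and 1651 and 456 and 793 (0.0473). The summed AMPA level was 3079 and 5339 with noggin and RA, 4904 and 7264 with prdm12, 6669 and 7645 with engR and 1516 and 3735 with VP16, so that VP16 overlapped with noggin and RA alone. GRIK2 was not called among these groups, with 1139 and 1388, 1097 and 1815, 1490.2 and 1710.4 and 1456 and 1396, and was named after its values were seen. grid1, a delta receptor, read 15.4 and 17.6, 24.9 and 95.8, 35.5 and 107 and 15 and 22.6 and was not called with engR (adjusted p = 0.316).

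GABA receptors gave 1 call in limma among the neuralized groups. It was 1 of 7 tested genes with VP16 against engR, where 8.7% of all genes were called lower. gabra5, a GABA-A alpha subunit, had 25.2 and 85.3 normalized reads with noggin and RA, 37.0 and 95.8 with prdm12, 270.1 and 467 with engR and 1.15 and 9.82 with VP16, and was lower with VP16 than with engR (-6.21 ± 0.90; adjusted p = 0.00536). Its engR value against noggin and RA alone was 2.90 ± 0.90 (adjusted p = 0.145; 0.0209 with the block), and the libraries of these 2 groups did not overlap. The GABA-B genes were lowest among neuralized libraries in VP16 replicate 1: in the same order gabbr1 read 886 and 1606, 1404 and 2471, 1578 and 1938 and 201 and 879, and gabbr2, the subunit that couples to the G protein, 204 and 315, 542 and 1567, 837 and 1168 and 6.91 and 215. VP16 replicate 2 lay near or within the noggin and RA libraries for both. Neither gene was called in limma or edgeR, although both were lower with VP16 than with prdm12 and than with engR in DESeq2 (adjusted p = 0.0486 and 0.0492 for gabbr1; 0.0289 and 0.0203 for gabbr2) and in limma with the replicate block (gabbr1, 0.024 and 0.0167; gabbr2, 0.0232 and 0.0123).

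Serotonin receptors were low in all groups, and only 3 of 13 were tested. htr1b, coupled to inhibitory G proteins, had no read in wild type, 0.810 and 0 normalized reads with noggin and RA, 27.7 and 46.3 with prdm12, 16.7 and 65.9 with engR and 0 and 0.980 with VP16. Its libraries held 1 read in all with noggin and RA, 86 with prdm12, 80 with engR and 1 with VP16. The ratio of pooled reads of engR to noggin and RA alone was 101 (95% counting interval 17.5 to 4021), and that of prdm12 was 91.0 (15.9 to 3634). The limma tests, which take log2(value + 1) by library and not these ratios, gave an adjusted p of 0.0214 for engR. For prdm12 the test did not pass (0.0779; 0.0439 with the block). VP16 was lower than prdm12 (adjusted p = 0.0219) and than engR (0.00969). htr1b passed the filter only through engR, with a mean of 9.47 over the other 8 libraries, and its tests against engR rest on that selection.

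htr1a, of the same subtype group, had no read in wild type and read 1.63 and 4.18 with noggin and RA, 27.7 and 53.7 with prdm12, 7.30 and 10.3 with engR and 2.30 and 3.93 with VP16. It passed the filter only through prdm12, its highest group, with a mean of 3.71 over the other 8 libraries, and its tests against prdm12 rest on that selection. The VP16 value against prdm12 was -3.30 ± 0.63 (adjusted p = 0.0305), and the prdm12 value against noggin and RA alone was 3.42 ± 0.63 (0.115; 0.0439 with the block). htr2b, which signals through phospholipase C, ran the other way. It read 3.97 and 3.28 in wild type, 29.3 and 19.2 with noggin and RA, 15.7 and 11.6 with prdm12, 13.6 and 7.21 with engR and 59.9 and 53.0 with VP16. Both VP16 libraries were the highest of all 10, and htr2b was the 1 receptor gene higher with VP16 than with engR (2.39 ± 0.50; adjusted p = 0.0195). Against prdm12 the difference was 1.99 ± 0.50 (0.0713; 0.0162 with the block) and against noggin and RA alone 1.21 ± 0.50 (0.699).

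Of the 9 genes lower with VP16 than with prdm12, 8 were among the 19 called between VP16 and engR, which share the VP16 libraries; htr1a was the exception. With the replicate block grm6, glra3, gabra5, GRM2, grin1, glrb, gria4 and GRIK3 also passed as lower with VP16 than with prdm12, at adjusted p between 0.00829 and 0.0469. Of the 19 general neuron genes, 7 were called lower with VP16 than with prdm12 (3.11% of all genes) and 9 than with engR (8.7%), and none was called higher. stmn4, which encodes a stathmin, was called lower and had a mean of 144 with VP16, 2427 with prdm12 and 2555 with engR. neurod1, a transcription factor gene named after its values were seen, read 299 and 332 with VP16 against 237 and 160 with prdm12 and was not called (adjusted p = 0.431). Levels per 100000 reads of the neuron list, a measure chosen after seeing the data, differ between receptors. CHRM4 stood at 43.1 and 30.7 with noggin and RA, 264 and 233 with prdm12, 174 and 129 with engR and 17.9 and 18.5 with VP16. glra2 stood at 5.81 and 6.95, 106 and 119, 112 and 149, and 4.47 and 9.84 in the same order. Both kept the VP16 libraries apart from the prdm12 and engR libraries on this scale. The VP16 values rested on 4 and 15 reads of CHRM4 and 1 and 8 reads of glra2. The scale leans on tubb2b, which alone made up 12333 of the list sum of 25722 in VP16 replicate 1. In prdm12 replicate 2 it made up 108120 of 217393.

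On the same scale chrnb2 stood at 136 and 88.0 with noggin and RA, 834 and 501 with prdm12, 263 and 182 with engR and 421 and 135 with VP16, so that prdm12 stayed highest while VP16 overlapped with engR. grm7 stood at 197 and 120, 110 and 63.1, 183 and 189, and 35.8 and 34.5. chrna5 stood at 413 and 293, 448 and 264, 570 and 465, and 756 and 272, and grin1 at 2549 and 1589, 1419 and 1103, 1541 and 1586, and 4490 and 2075. For grin1 VP16 was not below the other groups on this scale. For chrna5 VP16 replicate 1 was the highest of these libraries, and VP16 replicate 2 lay below those with noggin and RA alone and with engR. The 2 VP16 libraries differed in the level of all receptors on it, 32859 and 15715, against 11759 to 13821 in the other 6 neuralized libraries.

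Several receptor genes are direct neighbours on a scaffold of the table, and neighbours did not always share a pattern. Among the pairs with no gene between them are CHRNB4 and CHRNA3, chrna1 and chrna1.2, glrb and gria2, chrng and chrnd, chrna6 and chrnb3, and the serotonin channel genes HTR3A and HTR3B. CHRNB4 and CHRNA3, which lie 6678 bases apart and whose products join in ganglionic receptors, were both called higher with noggin and RA than in wild type. CHRNA3 read 72.4 and 49.4 with noggin and RA, 85.0 and 71.0 with prdm12, 144 and 98.9 with engR and 9.21 and 41.2 with VP16 (VP16 against engR, adjusted p = 0.0519; 0.0255 with the block), and the narrower range of CHRNB4 is given above. chrna1.2 and chrna1, 2983 bases apart, share the root of their symbol, and their sequences were not compared. If they are alike, reads could be split between them, so their values are uncertain. chrna1.2 was called higher with noggin and RA (10.6 and 7.66 in wild type; adjusted p = 4.12e-05) and chrna1 was not (17.2 and 0, then 14.6 and 5.86; 0.453). chrna6 was lower with noggin and RA, while chrnb3, 18477 bases away, was under the filter, with 5.29 and 5.47 in wild type and 1.63 and 3.35 with noggin and RA.

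**Figure D5:**
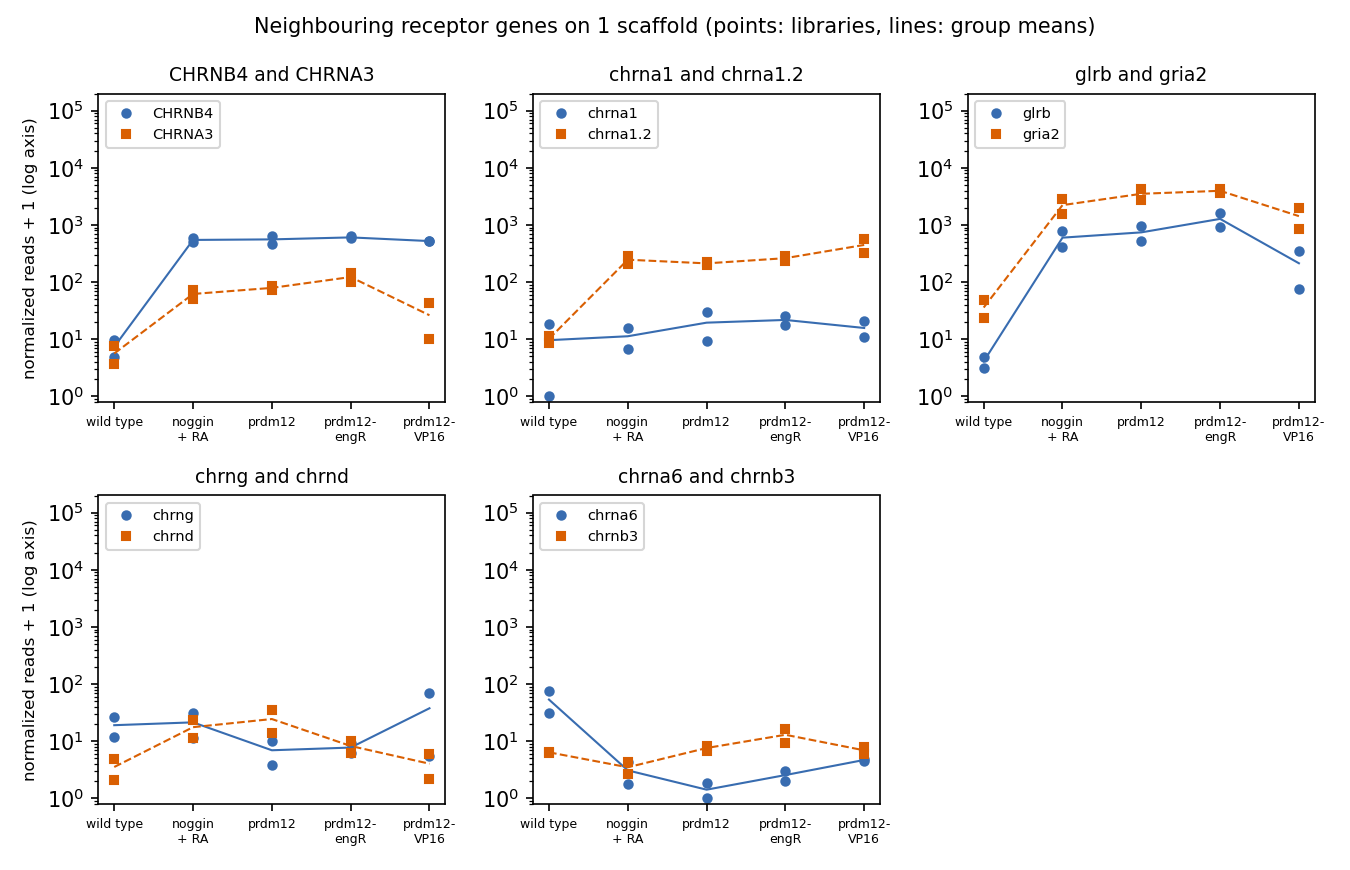
Normalized reads (plus 1, log axis) by group for 5 pairs of receptor genes that adjoin on a scaffold, with points for libraries and lines joining group means (circles and solid lines, first gene; squares and dashed lines, second gene). CHRNB4 stays between 465 and 649 over the 4 groups with noggin while CHRNA3 is lowest of these with VP16, and chrna6 is highest in wild type while chrnb3 stays between 1.63 and 15.6 in all libraries.

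Genes whose products anchor or modify these receptors were counted as well. Of 55 scaffold and auxiliary genes (gephyrin, the shank, homer and dlg families, AMPA receptor partners, neuroligins and others), 45 were tested, and 33 were higher, 2 lower and 10 not called with noggin and RA against wild type (22.3% of all genes higher and 21.4% lower; median log2 fold change of the 45, 3.74). The 2 lower were dlg1 (a mean of 2883 in wild type and 1097 with noggin and RA; adjusted p = 0.00162) and pick1, which encodes a protein that binds AMPA receptors (1233 and 320.2; 0.00192). Those with the smallest p were CACNG2, an AMPA receptor partner (a mean of 2.42 in wild type and 532.5 with noggin and RA; adjusted p = 1.29e-05), shank1 (2.42 and 321; 1.33e-05), homer3 (10.5 and 449; 2.73e-05) and nlgn2 (4.29 and 640; 3.13e-05). With engR 1 was called higher than with noggin and RA alone, cacng4 (59.7, then 334, adjusted p = 0.0191), against 2.41% of all genes. With prdm12 or VP16 none was called against noggin and RA alone. With VP16 5 were lower than with prdm12 (3.11% of all genes), among them cnih2, another AMPA receptor partner (216 with prdm12, 11.6 with VP16; adjusted p = 0.00305), KCTD16, a GABA-B partner (301 and 7.37; 0.0268), and gphn, which encodes gephyrin (6576 and 3118; 0.042). With VP16 14 were lower than with engR (8.7% of all genes), and none was called between engR and prdm12.

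Genes of the neuromuscular junction and of skeletal muscle were measured as well. For the counts that follow, 22.3% of all genes were called higher and 21.4% lower with noggin and RA than in wild type. Of all genes, 2.41% were higher with engR than with noggin and RA alone, and 8.7% were lower with VP16 than with engR. Of 10 junction genes 8 were tested, and 6 were higher with noggin and RA than in wild type, among them the cholinergic neuron genes slc5a7 (0.545, then 336; adjusted p = 0.000268), SLC18A3 (1.87, then 658; 0.000418) and chat (0 in both wild-type libraries, then 39.7; 0.0031). Among neuralized groups, lrp4 was higher with engR than with noggin and RA alone (749, then 1922; adjusted p = 0.0267), and lrp4 and ache were lower with VP16 than with engR (0.0125 and 0.0303). Of 21 skeletal muscle lines 16 were tested, and 7 were higher and 2 lower with noggin and RA than in wild type. They were led by myod1 (0.545, then 251; adjusted p = 9.11e-05) and actc1 (114, then 2233; 0.000213). The summed level was 6054 and 7738 in wild type and between 4651 and 8951 in the other libraries. Different genes made up these sums. acta1 read 3875 and 6128 in wild type and 2010 and 1637 with noggin and RA. ryr1 read 52.9 and 173 and then 1663 and 3552. myf5, myf6 and myog were each at or below 12.4 in every library. The part of muscle cells in the muscle-type nicotinic subunits was not tested.

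Markers of the other cell types of the cap also differed between groups. Of 16 epidermal lines, 15 were lower and 1 higher with noggin and RA than in wild type (21.4% and 22.3% of all genes). With engR 3 were higher than with noggin and RA alone (2.41% of all genes). With VP16 5 were lower and 1 higher than with engR (8.7% and 3.42%). Of 9 multiciliated cell genes, 2 were higher and 3 lower with noggin and RA than in wild type (22.3% and 21.4% of all genes). With engR 4 were lower than with noggin and RA alone (1.02% of all genes). With VP16 3 were higher than with prdm12 (0.758%) and 5 than with engR (3.42%). The genes of this list did not move together. In wild type myb read 621 and 418, and in the neuralized libraries at most 17.5. By contrast, rfx2 read 562 and 631 in wild type and at least 814 in the neuralized libraries. Whether these counts follow the number of multiciliated cells was not tested. Small secretory cells make serotonin in the frog epidermis. Of 5 of their genes, 2 were higher and 3 lower with noggin and RA than in wild type (22.3% and 21.4% of all genes). The 2 higher were foxa1 and chga, and the 3 lower were tph1, ddc and SLC6A4. With VP16 1 was lower than with engR (8.7% of all genes), and 1 was higher and 1 lower than with prdm12 (0.758% and 3.11%). The part of these cells in the receptor levels was not tested.

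The 26 receptor genes under the filter comprised 8 GABA, 4 glutamate, 4 acetylcholine and 10 serotonin genes, and no single value of theirs exceeded 40.5 normalized reads. gabrp, a GABA-A subunit, had no read in any library. In a fit without the filter some of them were called with noggin and RA against wild type, and those described here were chosen after their values were seen. HTR7, coupled to stimulatory G proteins, read 34.4 and 36.1 in wild type and had no read in the other 8 libraries, at least 28.6-fold lower with noggin and RA against a floor of 3 reads over that group (adjusted p = 1.89e-05). htr5a read 15.9 and 40.5 in wild type and 1.63 and 1.67 with noggin and RA (adjusted p = 0.00688), and chrna9, known from sensory hair cells, 2.65 and 3.28 and then 0 and 0.840 (0.0273). chrne, the muscle-type subunit of mature junctions in mammals, read 0 and 1.09 and then 8.94 and 20.1 (0.00311), and htr1f had no read in wild type and 3.25 and 4.18 (0.00967). HTR7, htr5a and chrna9 were thus lower and chrne and htr1f higher with noggin and RA. Among the neuralized groups, the same fit called HTR2A lower with VP16 than with prdm12 (0.0339) and htr1f lower with VP16 than with engR (0.0113).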

How the data were processed

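Animal caps were profiled by poly-A RNA-seq with a non-stranded kit, per the labels' protocols. The submitters' processing notes name Bowtie, Bowtie2, edgeR and HOMER without versions or roles; the genome build is not given in the sources used here. In the deposited table the authors give 1 signal value per gene and library, which is a scaled read count. Dividing each library by its value of 1 read gave whole numbers (within 0.05) for 100% of values, so reads could be recovered. Reads on genes numbered 11986697 to 15893668 per library. The 5 lines of the read counter that name no gene were left out; reads not placed uniquely came to 23.8 to 44.0% and reads on no feature to 7.53 to 11.1%. Without strand, a gene and its antisense partner cannot be told apart.

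Each gene with a mean of at least 10 (12937 of 19921) was tested in R 4.3.3 with limma 3.58.1. The fit took log2(value + 1) of all 10 libraries, with group as the only term and the prior variance following the mean. P-values are two-sided, were adjusted per comparison (7 in all) by Benjamini-Hochberg, and were called under 0.05. Alternatives were edgeR 4.0.16 and DESeq2 1.42.0 on the recovered reads, other pseudocounts, filters and scalings, and each library left out. Scripts were tested on simulated data. Tables were handled with Python 3.11.15. Deviations of equally numbered libraries from their group means correlated at 0.222 to 0.791 across genes in all 10 pairs of groups, so the numbers were taken to pair libraries, and a fit with the replicate number as a block was an alternative. Columns were matched to samples by construct names; the wild-type columns carry a code and were matched because every other column names its construct. Receptor genes were named by values per library where they were called among the groups with noggin, where they had the smallest p of their class in the comparison with wild type in each direction, or where they had the smallest p of their class, under 0.05 unadjusted, against noggin and RA alone; of other lists, up to 4 genes. The receptor genes and all lists were chosen with earlier results of these data known. Intervals and floors of 3 reads cover counting error only. Some receptor genes that this rule takes are counted in totals and are not reported here by name. The 4 ChIP and input samples were not used.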

Additional observations from a re-analysis of the deposited data

How the results depend on the processing

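Of the genes described by the stated rule, 2 changed direction, both with noggin and RA against wild type and called under no setting. grin2a (-0.34) stood at 0.27 in edgeR, 0.20 in DESeq2, and from -1.81 to 1.13 when each library was left out, above 0 without wild type 1 (0.22) or noggin 1 (1.13). GRM2 (-0.38) ranged from -1.20 to 0.43, above 0 without wild type 1 (0.36) or noggin 2 (0.43). Counts of called receptor genes that moved by over 1.5 times are given here, each with the share of all genes called in the same fit. For prdm12 against noggin and RA alone (1; 0.162%), they were 0 with a pseudocount of 0.25 (0.147%), 3 with a pseudocount of 4 (0.348%), 0 without the filter (0.114%), 3 with quantile normalization (0.216%), 5 without the trend (0.294%), 0 with the 2 groups fitted alone (0%), 2 with edgeR (0.178%) and 6 with DESeq2 (1.93%). For engR against noggin and RA alone (5; 3.43%), they were 3 with a pseudocount of 0.25 (3.03%), 3 with a minimum mean of 50 (3.71%), 3 with the 2 groups alone (2.37%) and 11 with DESeq2 (9.04%). For VP16 against noggin and RA alone (0; 0%), DESeq2 called 4 (0.982%). For VP16 against prdm12 (9; 3.86%), they were 5 with a minimum mean of 50 (4.03%), 0 with the 2 groups alone (0%) and 20 with DESeq2 (10.1%). For engR against prdm12 (0; 0%), DESeq2 called 2 (1.38%). For VP16 against engR (19; 12.1%), they were 11 with the 2 groups alone (4.95%) and 29 with DESeq2 (18.7%). The lower counts with a minimum mean of 50 come from called genes that were not tested there. These were chrm5 and htr1b (means of 27.4 and 15.8) for engR against noggin and RA alone. For VP16 against prdm12 they were the same genes with chrna7 and htr1a (36.5 and 11.1). No gene described by name that was tested at that minimum lost its call.

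With the replicate number as a block, the counts were 5, 10 and 2 for prdm12, engR and VP16 against noggin and RA alone, 27 for VP16 against prdm12, 0 for engR against prdm12, 33 for VP16 against engR and 42 for noggin and RA against wild type; the block gained calls and ended none. Leaving out each library gave 35 to 39 calls for noggin and RA against wild type, 0 to 2, 0 to 6 and 0 to 5 for prdm12, engR and VP16 against noggin and RA alone, 2 to 18 for VP16 against prdm12, 0 for engR against prdm12 and 6 to 21 for VP16 against engR. The cause of these differences was not tested. A lone library left in a group is assumed to vary like the other groups. At 3 reads a normalized level is 2.44 to 3.97, which limits the low serotonin and GABA-A genes.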
